A study of Mus musculus with 8 samples.

Results

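The c-Jun N-terminal kinase (JNK) cascade was examined in cultured mouse spermatogonial stem cells through 10 genes chosen by name: the JNK kinases Mapk8, Mapk9 and Mapk10, their direct activators Map2k4 and Map2k7, the kinases above those, Map3k1, Map3k5 and Map3k12, and the scaffold genes Mapk8ip1 and Mapk8ip3. A gene was read from the array's probe sets that carry its symbol alone in the platform annotation, and where there was more than 1, from the brightest by its mean over all arrays. By this rule 9 of the 10 genes were measured, out of 19938 genes with such a probe set. Map2k7 has no probe set with its symbol in that annotation and was not analysed here. Mapk10 and Map3k12 have 2 probe sets each, and the other 7 measured genes have 1.

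Total RNA of the cells was hybridised to 8 Affymetrix arrays in 3 groups. In the young donor, short culture group (n = 3) the donors were 8 days old and the cells had spent 7 to 10 weeks in vitro. In the young donor, long culture group (n = 3) donors of the same age had given cells that were kept for 14 to 18 months. The serial transplant, long culture group (n = 2) had a labelled donor age of 1500 days and again 14 to 18 months in culture, so that donor age and transplantation cannot be told apart. All 3 groups are spermatogonial stem cells collected from culture, so none is fresh from the testis. The sources used here give no strain, medium or feeder layer. They also leave unsaid whether replicates were separate cultures, so a p-value reflects array-to-array spread alone, which could be technical.

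JNKs are stress-activated protein kinases of the MAP kinase family. Cytokine receptors, oxidative stress and cytoskeletal injury act on MAP3 kinases, which phosphorylate the MAP2 kinases MKK4 (Map2k4) and MKK7 (Map2k7), which in turn phosphorylate a JNK. Scaffold proteins hold the tiers together, and active JNK phosphorylates c-Jun and other AP-1 transcription factors. Mapk8 (JNK1) and Mapk9 (JNK2) are expressed widely, while Mapk10 (JNK3) is known mainly from brain, heart and testis. Activity is set by phosphorylation, which an RNA measurement does not show.

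Values are log2 RMA signals, on which a difference of 1 is a doubling. RMA gives no detection call, so the median of all probe sets, 6.94, served as a mark of dim signals, and the lower quartiles of the arrays lay between 5.32 and 5.52. Germ cell genes were high, as the label requires: all 15 measured germ cell markers had means above that mark, among them the spermatogonial transcription factor Zbtb16 and the GDNF receptor gene Gfra1, against 2 of 13 neuronal, 1 of 12 leukocyte and 4 of 11 Sertoli and Leydig cell markers. Of 14 fibroblast markers 12 were above it, and the sum of their linear signals ran from 31991 to 47688 in short culture, from 20382 to 20976 in long culture of young-donor cells and from 13530 to 20542 in the serial-transplant arrays. Short-culture replicate 2 held the highest of these sums and the lowest array weight (0.328, where the others had 0.793 to 2.78).

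The genes of the cascade differed unevenly between the short and long culture groups. Among the 9 measured genes Mapk10 fell 3.07-fold between short and long culture of young-donor cells, the MAP3 kinase genes Map3k5 and Map3k12 rose 1.42-fold and 1.43-fold, and the other 6 did not pass the test. That makes 3 genes of 9, 2 higher and 1 lower, in limma at a Benjamini-Hochberg adjusted p under 0.05. Over all 19938 genes the share called in this comparison was 12.8%, of which 6.10% were higher and 6.69% lower. The median change of the 9 genes was 0.02 on the log2 scale, and that of all genes -0.04.

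**Figure D1:**
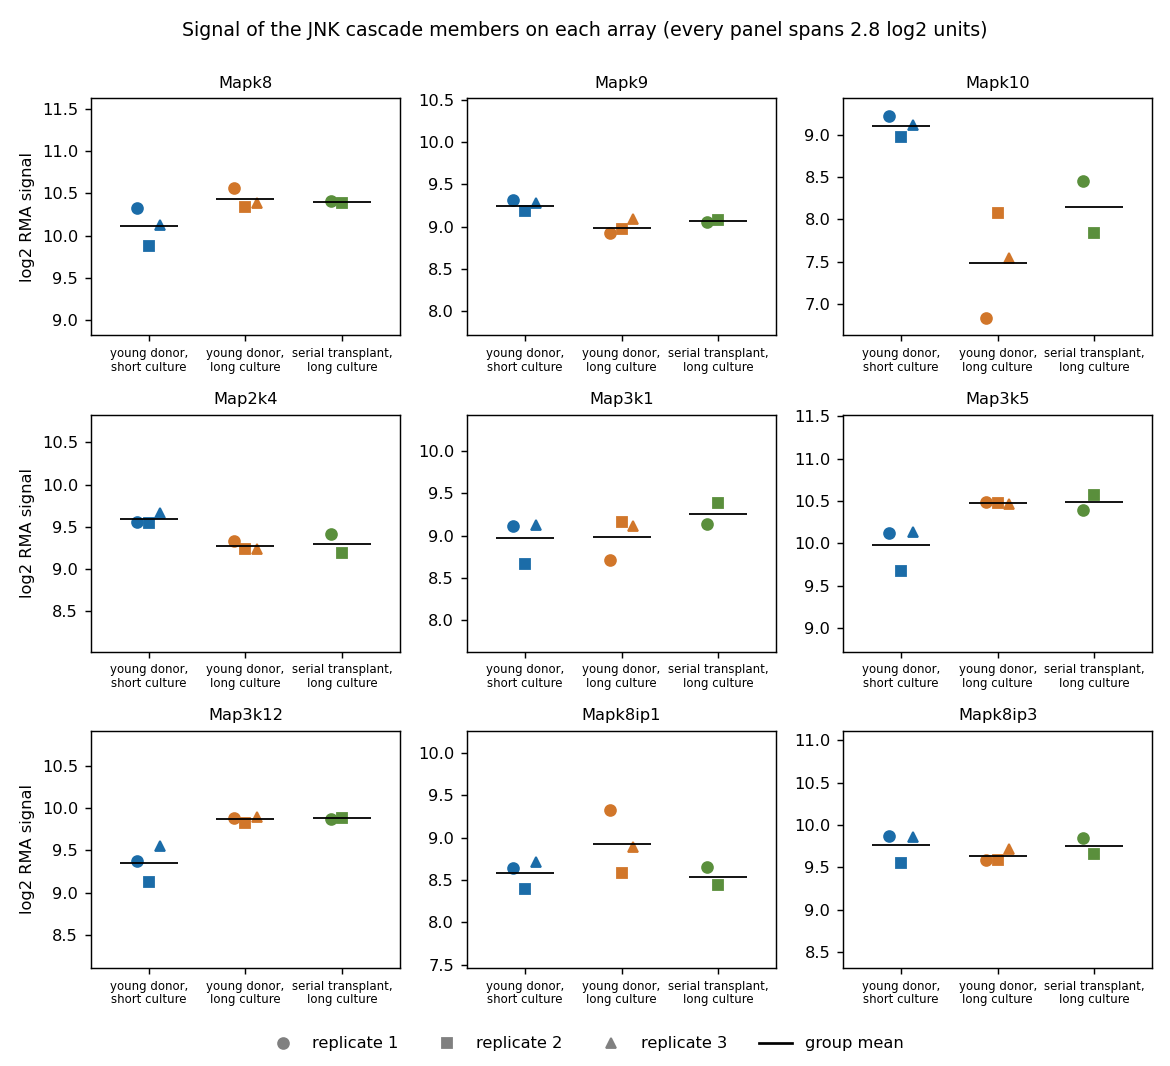
The log2 RMA signal of each of the 9 measured genes is plotted for every array (points, shaped by replicate number) in the 3 groups, with the group mean as a line. Mapk10 lies between 8.98 and 9.22 in short culture and between 6.84 and 8.46 on the 5 long-culture arrays, while Map3k5 and Map3k12 lie higher on all 5 long-culture arrays than on any short-culture array.

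The JNK kinase genes come first. Mapk10 (probe set 10531869, on chromosome 5 in RefSeq's GRCm38.p6 annotation) read 9.22, 8.98 and 9.12 on the 3 short-culture arrays, 6.84, 8.08 and 7.55 on the 3 long-culture arrays of young-donor cells, and 8.46 and 7.84 on the serial-transplant arrays. Every short-culture value thus lay above every long-culture value, and the long-culture arrays spread far more (SD 0.62 for young donors and 0.44 for the serial transplant, against 0.12 in short culture). The difference between long and short culture of young-donor cells was -1.62 ± 0.26 (SE, n = 3 and 3; limma, Benjamini-Hochberg adjusted p = 0.00442). It was the 36th largest fall among the 19938 genes. The call held under all 16 alternative settings, with adjusted p between 0.000632 and 0.0227, and the difference was -1.16 with both probe sets averaged and between -1.29 (young long-culture replicate 1 left out) and -1.91 (replicate 2 left out) with 1 array left out. In RNA from a whole culture, fewer cells of a type and less RNA per cell cannot be told apart.

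The dimmer probe set of Mapk10 showed the same order of groups. It read 5.0, 4.75 and 5.03 in short culture, 4.23, 4.30 and 4.18 in long culture of young-donor cells, and 4.52 and 4.36 in the serial-transplant arrays. These levels are below the lower quartile of every array, in the range of background. The fall in young-donor cells was -0.70 ± 0.11 (limma adjusted p = 0.00389), and its size is not to be set against that of the brighter probe set. Here the young-donor values spread little (SD 0.06), and the 2 serial-transplant arrays lay above them and below all short-culture arrays.

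Mapk10 fell beside 11 of the 14 measured fibroblast markers, whose median change was -0.90, where 6.69% of all genes were lower. In the same comparison 6 of 12 leukocyte markers fell (median -0.71), among them the mast cell gene Cpa3 (-2.79) and the lysosomal gene Laptm5 (-2.29). Of 11 Sertoli and Leydig cell markers 3 fell, the steroidogenic genes Cyp11a1 (-2.35), Star (-1.0) and Nr5a1 (-0.51), and 1 rose, Wt1 (0.90). Of 15 germ cell markers 3 fell, Id4 (-0.80), Bcl6b (-1.0) and Lhx1 (-1.3), and 3 rose, Ret (0.75), Dazl (0.46) and Lin28a (0.45). Over all genes 6.10% were higher. Without young long-culture replicate 1 or 3 or short-culture replicate 2, none of the 15 was called higher, while 3 were still lower. The 3 young-donor long-culture arrays had summed fibroblast signals of 20382 to 20976 and Mapk10 values of 6.84 to 8.08. Short-culture replicate 2 had the highest fibroblast sum and the lowest Mapk10 value of its group. That array was, however, the lowest of its group for all 9 measured members. The part of any of these cell types in the fall of Mapk10 was not tested. None of the 13 neuronal markers passed the test, where the neuronal tubulin gene Tubb3 changed by -0.31 ± 0.18 (limma adjusted p = 0.305), the nuclear protein gene Rbfox3 by -0.03 ± 0.13 (0.909) and the synaptic gene Snap25 by -0.12 ± 0.13 (0.621). The means of these 3 genes were all below the mark of dim signals in every group.

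Mapk8, the gene of the widely expressed JNK1, read 10.32, 9.88 and 10.13 in short culture, 10.56, 10.34 and 10.38 in long culture of young-donor cells, and 10.41 and 10.38 in the serial-transplant arrays. The lowest long-culture value lay just above the highest short-culture value, and the difference of 0.31 ± 0.12 for young donors did not pass (limma adjusted p = 0.124, 95% interval 0.05 to 0.58). Mapk9, the gene of JNK2, read 9.31, 9.18 and 9.28 in short culture, 8.92, 8.97 and 9.09 in long culture and 9.06 and 9.08 in the serial-transplant arrays. All of its long-culture values were below all short-culture values, yet the difference of -0.26 ± 0.09 did not pass either (adjusted p = 0.101, 95% interval -0.47 to -0.05). It did pass after quantile normalization (-0.30, adjusted p = 0.0466).

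Promoter sequences of the 3 genes that passed are shown, since they are the members called between long and short culture of young-donor cells. The letters TGACGTCA, the cyclic AMP response element (CRE) to which ATF2 and c-Jun, both JNK substrates, can bind as a pair, were searched on both strands, as were TGANTCA for AP-1. Both read the same on either strand, and a match to one is never part of a match to the other. The windows ran from 250 bases before to 50 after each RefSeq start of GRCm38.p6, and 8 of the 9 genes have at least 1. Of their 12 windows 1 holds a CRE, the outer start of Mapk10, where it lies 29 bases before the start, and none holds the AP-1 letters. Over all 32851 windows 1.79% hold a CRE and 7.81% the AP-1 letters. The Mapk10 window also has 8 CG pairs, near the median of 7 over all windows, where that of Map3k12 has 19 and that of Map3k5 has 47. The 100 bases before the outermost start of each gene are given with a CRE in capitals, for Mapk10 at chr5:103211335-103211434 on the minus strand, for Map3k12 at chr15:102517005-102517104 on the minus strand and for Map3k5 at chr10:19934426-19934525 on the plus strand. A match is a run of letters and no measured binding.
Mapk10: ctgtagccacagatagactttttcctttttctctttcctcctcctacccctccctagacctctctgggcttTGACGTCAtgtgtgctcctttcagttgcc
Map3k12: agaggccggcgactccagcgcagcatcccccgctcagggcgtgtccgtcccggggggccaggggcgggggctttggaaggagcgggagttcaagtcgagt
Map3k5: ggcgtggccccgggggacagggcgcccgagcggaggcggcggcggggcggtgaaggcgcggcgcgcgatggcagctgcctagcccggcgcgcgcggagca

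The direct activator Map2k4, which encodes MKK4, read 9.56, 9.55 and 9.66 in short culture, 9.33, 9.24 and 9.24 in long culture of young-donor cells, and 9.41 and 9.19 in the serial-transplant arrays. All long-culture values lay below all short-culture values. The difference for young donors was -0.32 ± 0.10 and missed the threshold (limma adjusted p = 0.0597, 95% interval -0.54 to -0.10). It passed with array weights (adjusted p = 0.0160), after quantile normalization (0.0390) and with dim probe sets left out (0.0409).

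Among the MAP3 kinases, Map3k12 (probe set 10433008, chromosome 15), the gene of the dual leucine zipper kinase DLK, which relays axonal and cytoskeletal injury to JNK, read 9.37, 9.13 and 9.55 in short culture. Its values were 9.88, 9.82 and 9.89 in long culture of young-donor cells and 9.87 and 9.88 in the serial-transplant arrays. The 5 long-culture arrays lay close together and above all short-culture arrays. The rise in young-donor cells was 0.52 ± 0.11 (n = 3 and 3; limma adjusted p = 0.0163). It was no longer called without young long-culture replicate 1 (adjusted p = 0.0572) or 3 (0.0711), nor when both probe sets were averaged (0.38, adjusted p = 0.0704). The dimmer probe set, whose group means of 6.41, 6.66 and 6.58 are below the mark of dim signals, gave 0.25 ± 0.17 (adjusted p = 0.389), and its groups overlapped.

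Map3k5 (probe set 10361926, chromosome 10), the gene of the apoptosis signal-regulating kinase ASK1, which is held inactive by reduced thioredoxin, read 10.12, 9.67 and 10.14 in short culture. In long culture it read 10.49, 10.48 and 10.46 in young-donor cells and 10.40 and 10.57 in the serial-transplant arrays. All long-culture arrays were higher than all short-culture arrays, and the young-donor long-culture values had an SD of 0.01. The rise of 0.50 ± 0.13 (n = 3 and 3; limma adjusted p = 0.0307) was no longer called without young long-culture replicate 1 (adjusted p = 0.0949), 2 (0.0740) or 3 (0.0976). Nor was it without short-culture replicate 2, where it was 0.35 (0.0540).

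Map3k1, which encodes MEKK1, read 9.11, 8.67 and 9.13 in short culture, 8.71, 9.16 and 9.11 in long culture of young-donor cells, and 9.14 and 9.39 in the serial-transplant arrays. The young groups overlapped throughout, and their difference was 0.02 ± 0.16 (95% interval -0.32 to 0.36). Both serial-transplant values lay above all short-culture values, with a difference of 0.29 ± 0.17 that did not pass (limma adjusted p = 0.379).

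The scaffold genes showed no call. Mapk8ip1, which encodes JIP1, read 8.64, 8.39 and 8.71 in short culture, 9.33, 8.58 and 8.89 in long culture of young-donor cells, and 8.65 and 8.44 in the serial-transplant arrays. Its highest value was that of young long-culture replicate 1, and the groups overlapped (0.35 ± 0.17, limma adjusted p = 0.219). Mapk8ip3, which encodes JIP3, a cargo adaptor of kinesin, read 9.87, 9.55 and 9.86 in short culture, 9.59, 9.59 and 9.72 in long culture and 9.84 and 9.66 in the serial-transplant arrays. These values overlapped as well (-0.13 ± 0.11, adjusted p = 0.524, 95% interval -0.38 to 0.12).

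**Figure D2:**
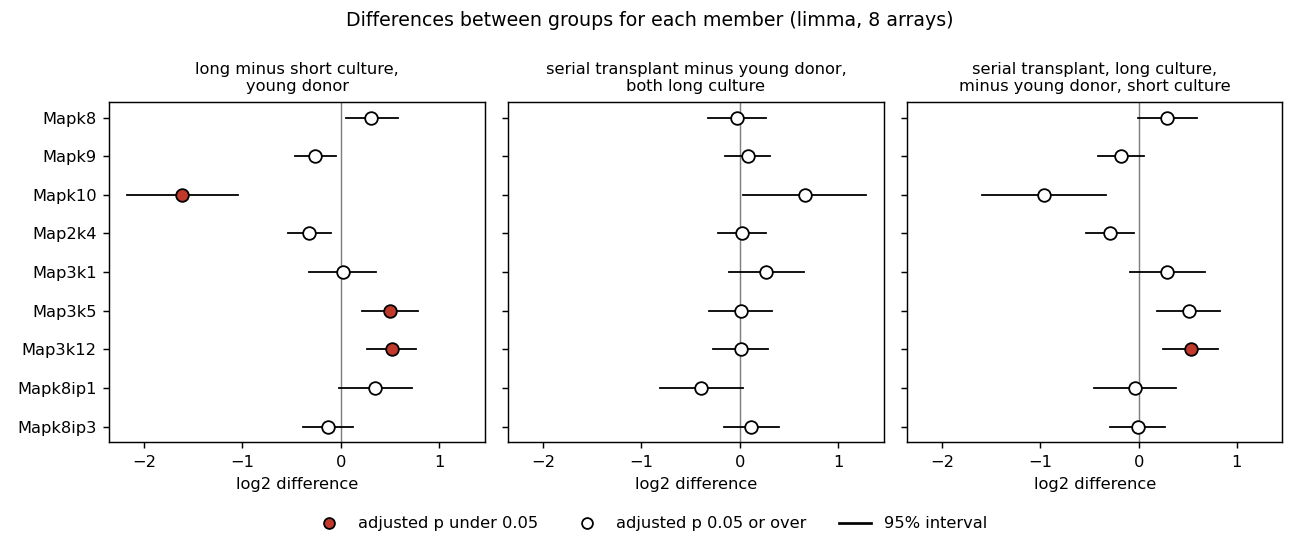
Log2 differences between groups are plotted for the 9 genes in the 3 comparisons (points, filled where the limma adjusted p is under 0.05) with 95% intervals. Mapk10 is at -1.62, 0.66 and -0.96, and Map3k12 at 0.52, 0.01 and 0.53.

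In all, 6 of the 9 genes did not overlap between the young groups, namely Mapk8, Mapk9, Mapk10, Map2k4, Map3k5 and Map3k12, where 34.0% of all genes did not. An unadjusted p under 0.05 was likewise met by 6 of 9, against 5703 of 19938 genes.

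The comparison of the serial transplant with young donors, both after long culture, asks what donor age and transplantation add at equal time in vitro. None of the 9 genes was called, and the share over all genes was 0.00% (limma, adjusted p under 0.05), with 1438 of 19938 genes and 1 of the 9 at an unadjusted p under 0.05. No alternative setting called a member either, while over all probe sets up to 22 were called, with array weights. The 1 was Mapk10, which was higher by 0.66 ± 0.29 in the serial-transplant arrays (n = 2 and 3; adjusted p = 0.682, 95% interval 0.03 to 1.29). By size this was the 51st largest positive difference of all genes, but its values of 8.46 and 7.84 bracket the 8.08 of young long-culture replicate 2. Mapk8ip1 had the 407th lowest difference, -0.39 ± 0.19 (adjusted p = 0.723). None of the 9 genes had groups that did not overlap, where 26.5% of all genes did. Map3k5 (0.01, 95% interval -0.31 to 0.33) and Map3k12 (0.01, -0.27 to 0.29) had the smallest differences, and their intervals still allow changes on either side.

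The serial transplant after long culture was also set against young donors after short culture, a comparison that uses the same short-culture arrays as the first. Map3k12 was called higher (0.53 ± 0.13, n = 2 and 3; limma adjusted p = 0.0261), so 1 of 9 genes rose and none fell, where 10.1% of all genes were called, 4.10% higher and 5.96% lower. The call of Map3k12 was lost without serial-transplant replicate 1 (adjusted p = 0.106) or 2 (0.202), without short-culture replicate 1 (0.0577), in a fit of these 2 groups alone (0.0778) and when its probe sets were averaged (0.161). Map3k5 was at 0.51 ± 0.14 (adjusted p = 0.0522) and Mapk10 at -0.96 ± 0.29 (adjusted p = 0.0638), both just short of the threshold. Mapk10 passed when both probe sets were averaged (-0.72, 0.0318) and on its dimmer probe set (-0.49 ± 0.12, 0.0285), which reads in the range of background. It also passed in the fit of these 2 groups alone (0.0313), with array weights (0.0337) and without young long-culture replicate 1 (0.0201) or 2 (0.0331). Without serial-transplant replicate 2 it was at -0.65 (0.504). Map3k5 passed after centring (0.0418), with dim probe sets left out (0.0387), with an intensity trend (0.0417) and without short-culture replicate 3 (0.0358). Between these groups 7 of 9 genes did not overlap, against 40.3% of all genes, the exceptions being Mapk8ip1 and Mapk8ip3.

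**Figure D3:**
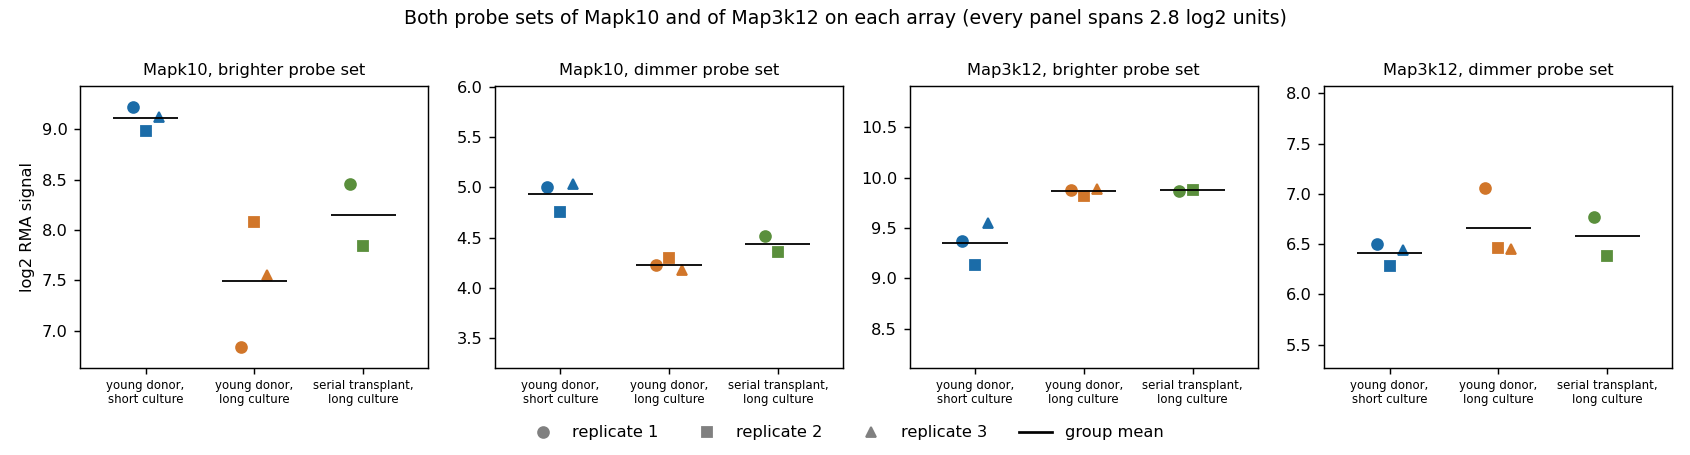
The log2 RMA signal of both probe sets of Mapk10 and of Map3k12 is plotted for every array, with group means as lines. The probe sets of Mapk10 order the groups alike, from 9.11 and 4.93 in short culture to 7.49 and 4.23 in long culture of young-donor cells, while the dimmer probe set of Map3k12 overlaps between all groups.

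For Mapk10 the group means were thus 9.11 ± 0.12 (SD, n = 3) in short culture, 8.15 ± 0.44 (n = 2) in the serial transplant and 7.49 ± 0.62 (n = 3) in young donors after long culture. Only the first and the last of these differed past the threshold. For Map3k12 the order was 9.35 ± 0.21, 9.87 ± 0.04 in young donors after long culture and 9.88 ± 0.01 in the serial transplant, and the last 2 means did not differ beyond their spread. For Map3k5 it was 9.98 ± 0.27, 10.48 ± 0.01 and 10.49 ± 0.12 in the same order, again with the last 2 within their spread.

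In short culture, replicate 2 gave the lowest of the 3 values for all 9 genes, at a median of 0.32 below the mean of the other 2 arrays. Over all genes that array was the lowest for 38.4%, and over the 5549 genes with a mean as high as the members' for 60.3%, at a median of 0.13 below the other 2. Without this array the difference between long and short culture of young-donor cells was 0.35 for Map3k5 (limma adjusted p = 0.0540), 0.41 for Map3k12 (0.0324) and -1.68 for Mapk10 (0.00858).

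**Figure D4:**
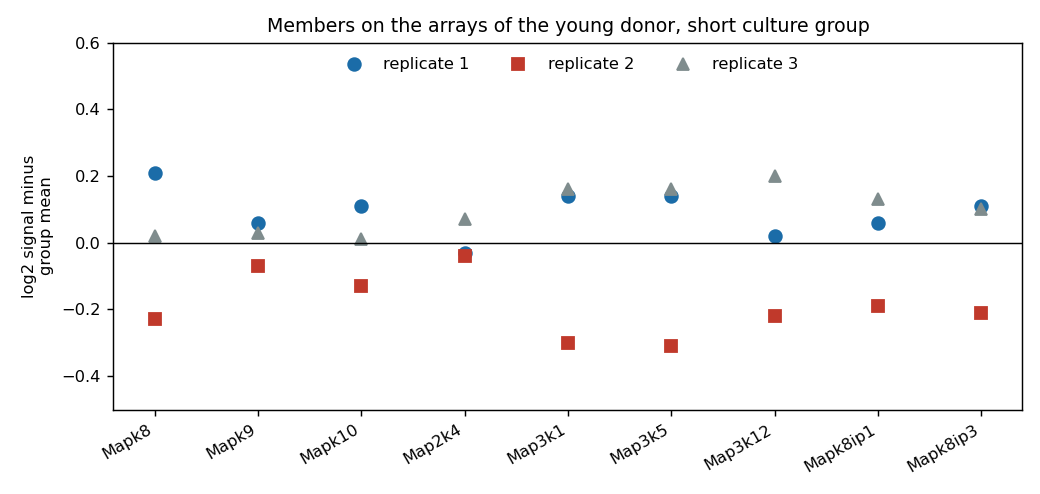
Log2 signal minus the group mean is plotted for the 9 genes on the 3 arrays of young donors after short culture, with a colour and shape for each replicate. Replicate 2 is the lowest point for each gene, though for Map2k4 it nearly coincides with replicate 1 (9.55 against 9.56).

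In long culture of young-donor cells, replicate 1 stood apart for some members. It had the lowest Mapk10 (6.84) and Map3k1 (8.71) and the highest Mapk8 (10.56) and Mapk8ip1 (9.33) of its group. On the same array Ddx4, a germ cell RNA helicase gene, was at 10.87 against 11.74 and 11.59, and Ret, the GDNF co-receptor gene, at 11.42 against 10.87 and 11.27. For Map3k5 and Map3k12 it lay near the other replicates.

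The genes whose pattern over the 8 arrays was most like a member's were sought among 10897 other genes above the mark of dim signals, by Pearson's r. The arrays fall into culture groups, which all these genes share, so r is given as a description. Closest to Mapk10 were Sh2b2 (r = 0.988), Arap1 (0.974), Egfl8 (0.973) and Slc12a9 (0.973), with log2 differences of -0.16 to -0.46 between long and short culture of young-donor cells. Map3k12 was matched by Bves (0.997), Trim68 (0.992), Tm6sf1 (0.992) and Adcy3 (0.991), which differed by 0.49 to 1.07. Map3k5 was matched by Me2 (0.995), Rnf139 (0.995), Ddhd2 (0.993) and Fancd2 (0.993), at 0.44 to 0.62.

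Around the members, MAP4 kinases form the tier above the MAP3 kinases. Of 7 MAP4 kinase genes 5 were measured and none was called by limma between long and short culture of young-donor cells (0 at an unadjusted p under 0.05), where 12.8% of all genes were called, so that this count is near the background. The smallest p-values were those of Tnik (-0.22 ± 0.12) and Map4k1 (-0.21 ± 0.15). Of 14 other MAP3 kinase genes 1 rose, Map3k4, which encodes MEKK4, at 0.50 ± 0.10 (limma adjusted p = 0.00912), and none fell. It read 9.37, 9.28 and 9.47 in short culture and 9.87, 9.91 and 9.84 in long culture, and 9.64 and 9.78 in the serial-transplant arrays, without overlap between long and short culture. Of all genes 34.0% did not overlap between the young groups, and 40.3% between the serial transplant and short culture. The latter difference of Map3k4, 0.34 ± 0.11, did not pass (limma adjusted p = 0.0769). In the young comparison the medians of these lists were -0.12 and -0.04, beside -0.04 for all genes.

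Of 14 measured genes of receptors, adaptors and regulators that feed the cascade 4 fell and none rose, with a median of -0.19, where 6.69% of all genes were lower and 6.10% higher. They fell beside the 11 of 14 fibroblast and 6 of 12 leukocyte markers, whose part in this was not tested. Tnfrsf1a, the receptor for tumour necrosis factor, read 9.67, 9.66 and 9.22 in short culture and 8.69, 8.78 and 8.75 in long culture (-0.78 ± 0.13, limma adjusted p = 0.00514). Gadd45g, whose product activates MEKK4, was at -0.57 ± 0.14 (0.0250), Gadd45b, whose product can bind and block MKK7, at -0.44 ± 0.11 (0.0263), and the adaptor gene Crk at -0.37 ± 0.09 (0.0293). The call of Crk was lost with the replicate block (0.0580), after centring (0.0560) and without any young long-culture array or short-culture replicate 1 (0.0619 to 0.101). That of Gadd45b was lost without any young long-culture array and without short-culture replicate 1 or 3 (0.0514 to 0.107). That of Gadd45g was lost without young long-culture replicate 1 or 3 or short-culture replicate 2 (0.0576 to 0.110). Tnfrsf1a fell also in the serial transplant against short culture (-0.75 ± 0.14, adjusted p = 0.00986), a call lost without serial-transplant replicate 2 (0.157). Crk (-0.41 ± 0.11, 0.0352) and Gadd45g (-0.56 ± 0.16, 0.0493) were also called there. Of these 3 calls 1 was left in the fit of the 2 groups alone, after centring and without young long-culture replicate 1 or 3. Crk and Gadd45g were also lost without serial-transplant replicate 1. Without serial-transplant replicate 2, which leaves 1 array in that group, all 3 were lost, as were most calls over all probe sets. With the replicate block 2 were left, Crk being lost (0.0672), and Gadd45g was also lost with array weights (0.0531), quantile normalization (0.0819) and an intensity trend (0.0527). In the young comparison 1 gene of the list was called without young long-culture replicate 1 or 3, and 2 without young long-culture replicate 2 or short-culture replicate 1.

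Of 7 other scaffold genes 1 rose, Dact1, whose product binds Dishevelled and is known from Wnt signalling rather than as a carrier of JNK. It read 8.41, 8.06 and 8.54 in short culture, 9.72, 9.19 and 9.33 in long culture of young-donor cells and 8.64 and 8.95 in the serial-transplant arrays, a rise of 1.08 ± 0.16 in young-donor cells (limma adjusted p = 0.00364). The list's median was -0.11, and 6.10% of all genes were called higher in this comparison. In the serial transplant against short culture, where 4.10% of all genes were called higher, 1 gene of the list rose as well. It was Sh3rf1, a scaffold gene chosen for mention after its values were seen (0.76 ± 0.13, limma adjusted p = 0.00744). That call was lost without serial-transplant replicate 2, which leaves 1 array in that group, as were most calls over all probe sets.

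Among 11 phosphatases and inhibitors 1 fell and 1 rose, where 6.69% of all genes were lower and 6.10% higher. Dusp4, a nuclear MAP kinase phosphatase, read 8.12, 7.25 and 7.65 in short culture and 6.5, 6.42 and 6.80 in long culture (-1.10 ± 0.19, limma adjusted p = 0.00576), the long-culture values being below the mark of dim signals. In the serial-transplant arrays it read 6.87 and 7.04, which also lay below all short-culture values. Between these groups 40.3% of all genes did not overlap. The difference of Dusp4 there, -0.72 ± 0.21, did not pass (limma adjusted p = 0.0581). Dusp19, a phosphatase gene linked to the MKK7 branch, was at 0.39 ± 0.10 in long against short culture of young-donor cells (adjusted p = 0.0323). That call was lost with the replicate block (0.0554) and without any of 5 arrays (0.0627 to 0.151). The median of the list was 0.09.

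Of 22 genes of JNK targets 3 fell and 1 rose, with a median of -0.07, where 6.69% of all genes were lower and 6.10% higher. The AP-1 genes Fosl2 (9.02, 9.21 and 9.08 in short culture, 8.31, 8.54 and 8.48 in long culture) and Fosl1 were at -0.66 ± 0.11 (limma adjusted p = 0.00614) and -0.71 ± 0.20 (0.0444). Short-culture replicate 1 read 8.60 for Fosl1 against 7.64 and 7.80, and without that array the difference was -0.41 (adjusted p = 0.0543). The call of Fosl1 was also lost without any long-culture array of either donor group (0.0635 to 0.140), in the fit of the 2 groups alone (0.0635), after centring (0.0634) and after quantile normalization (0.0627). Jdp2, a repressor of AP-1, was at -0.47 ± 0.11 (0.0226), a call lost without young long-culture replicate 1 or 3 or short-culture replicate 2 or 3 (0.0544 to 0.0931). Stmn1, the gene of the microtubule-destabilising stathmin, was at 0.44 ± 0.11 (0.0250), from 11.46 ± 0.13 to 11.91 ± 0.07. Its call was lost after quantile normalization (0.0513) and without any young long-culture array or short-culture replicate 2 (0.0560 to 0.111). In the serial transplant against short culture, Fosl2 (-0.62 ± 0.13, adjusted p = 0.0136) and Stmn1 (0.46 ± 0.12, 0.0383) passed as well, beside Irs1, an insulin receptor substrate gene (-1.05 ± 0.18, 0.00737), and Nfatc4, a transcription factor gene (-0.45 ± 0.11, 0.0291), which were picked after their values were seen. The call of Stmn1 there was lost in the fit of the 2 groups alone (0.0963), after quantile normalization (0.0802) and without any single array except short-culture replicate 3 (0.0521 to 0.368). Without serial-transplant replicate 2, which leaves 1 array in that group, these calls were lost, as were most calls over all probe sets. The median of the 22 genes was then -0.10, against -0.26 with all arrays. For the young comparison the counts were 1 lower and 0 higher without young long-culture replicate 1 or 3, and 2 lower and 0 higher without young long-culture replicate 2 or short-culture replicate 2.

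In the neighbouring ERK and p38 branches, 15 of 18 kinase genes were measured. Between long and short culture of young-donor cells 1 rose, Mapk13, the gene of a p38 kinase (0.47 ± 0.11, limma adjusted p = 0.0204), and 1 fell, Araf, the gene of a RAF kinase (-0.37 ± 0.10, 0.0374), beside a median of -0.10. Over all genes 6.10% were called higher and 6.69% lower, so that these counts are near the background. Mapk13 was not called without young long-culture replicate 1 (0.0761) or 3 (0.0690), or without short-culture replicate 1 (0.0634) or 3 (0.0528). Leaving out any array of either young group ended the call of Araf (0.0687 to 0.114), as did centring (0.0638) and the replicate block (0.0672). In the serial transplant against young donors after long culture, no gene of any of these 7 lists was called, where the share over all genes was 0.00%.

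**Figure D5:**
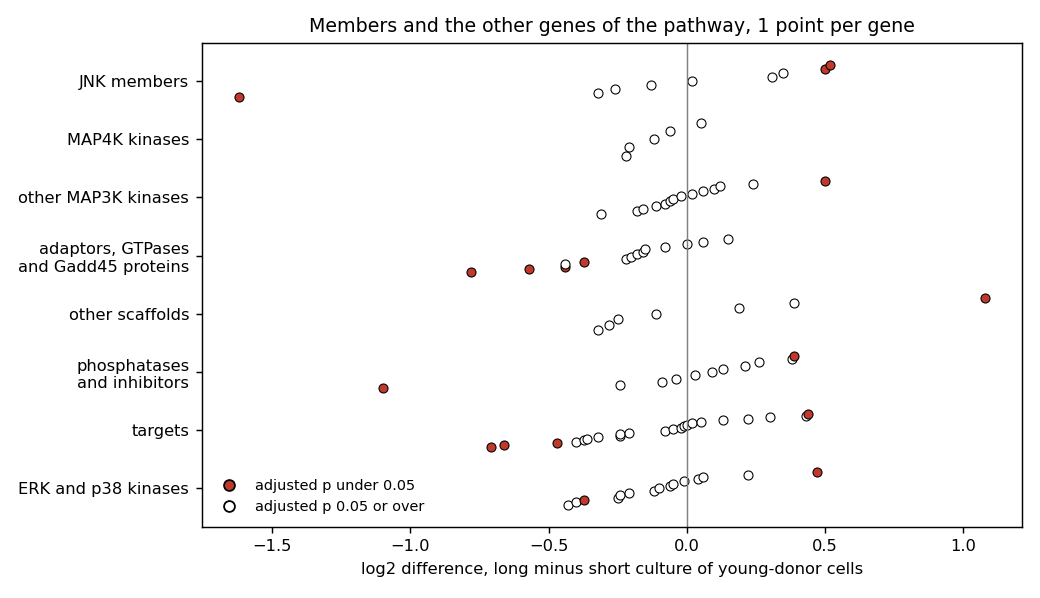
Log2 differences between long and short culture of young-donor cells are plotted for the 9 members and for the 7 lists of other pathway genes, 1 point per gene, filled where the limma adjusted p is under 0.05. Mapk10 is the lowest point at -1.62, Dact1 the highest at 1.08, and of the 14 adaptors, GTPases and Gadd45 genes the 4 filled points all lie below 0.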

How the data were processed

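The authors deposited 1 log2 RMA signal per probe set and array. The submitters' processing notes name Partek 6.4 and RMA, a method that subtracts background, aligns the arrays' distributions and condenses the probes into 1 value. Its settings are not stated in those notes. Of 35557 rows, 6613 numbered consecutively at the start, without gene names, were taken as controls and left out. Of the other 28944 probe sets 21789 have 1 symbol, 1621 several and 5534 none, and 21698 symbols were found by gene number in RefSeq's GRCm38.p6 table. Groups were compared with limma 3.58.1 (R 4.3.3) over all 8 arrays, 1 coefficient per group, with 5 residual degrees of freedom and a prior worth 6.28. Tests were two-sided, and p-values were adjusted by Benjamini-Hochberg across every probe set, with calls at 0.05. The fit was tested on simulated data with 200 changed probe sets in 28944. Of these, 99.1% with a log2 change of 1 and 39.3% with 0.5 were recovered in long against short culture. Among the calls 7.86% were false, above the 5% aimed at. Far more probe sets were called in the real comparison, so these shares need not apply to it. No 2 arrays were identical, and the number of arrays limits precision.

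The members and gene lists were chosen with earlier results of these data known. Named list genes are up to 4 called in long against short culture of young donors, or the 2 of smallest p. Alternatives were the 2 groups alone, array weights, centring, quantile normalization, dim probe sets left out, the replicate number as a block, an intensity trend, the mean of a gene's probe sets, and each array left out in turn.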

Additional observations from a re-analysis of the deposited data

How the results depend on the processing

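The number of probe sets called in long against short culture of young donors was 3260, with 5079 under array weights and 1085 to 3195 with 1 array left out, of which 1085 came without young long-culture replicate 3 and 1383 with replicate 1 of that group left out. In the serial transplant against young long culture it was 0, with 15 in a fit of the 2 groups alone, 22 with array weights, 4 with the replicate block and 0 to 11 with 1 array left out. In the serial transplant against short culture it was 2528, with 1252 in the fit of the 2 groups alone and 66 to 2817 with 1 array left out, 66 without serial-transplant replicate 2 and 1528 without replicate 1. Of the 9 members, 3 were called in the first comparison, 5 after quantile normalization and 1 to 3 with 1 array left out. In the last, 1 was called, 2 with array weights, centring, dim probe sets left out or an intensity trend, and 0 to 2 with 1 array left out.

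Among single members, 389 values kept their direction and side of the threshold, 13 gained a call, 12 lost one and 18 changed sign, all of the last without a call. Map3k1 in young donors was -0.03 with array weights, -0.01 after quantile normalization and -0.13 to 0.16 with 1 array left out. In the serial transplant against young long culture, Map3k12 was -0.03 with its probe sets averaged and -0.01 to 0.02 with 1 array left out, while 1 array left out gave -0.07 to 0.04 for Mapk8, -0.09 to 0.14 for Map2k4 and -0.08 to 0.09 for Map3k5. Against short culture, Mapk8ip1 was 0.01 after centring and -0.14 to 0.07 with 1 array left out, and Mapk8ip3 was 0.03 after centring, 0.04 with the replicate block and -0.12 to 0.08 with 1 array left out. The causes were not tested.

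The sources used here do not say whether the replicate numbers pair the samples. Same-numbered young arrays correlated at 0.0812, 0.176 and 0.102 in their deviations from group means, and differently numbered young arrays at -0.281 to 0.251. The highest value was that of young long-culture replicate 3 with short-culture replicate 1. Deviations within a group of 3 arrays cancel each other, so these correlations cannot decide the question. With the replicate block, 2754 probe sets and 3 members were called in long against short culture of young donors. The number of arrays limits what small changes could be seen.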
